A study of Mus musculus with 12 samples.

Results

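The 31 genes described here are imprinted genes that are expressed mainly from the copy inherited from the father. They were chosen by name and grouped into 18 imprinted domains. Of these, 30 had a row among the 35976 gene symbols of the count table and 29 had a count in at least 1 library. A test was possible for 26, among 16166 genes tested. Zfp264, a zinc finger gene next to Usp29, had no row under that symbol or a synonym. Snurf was listed at 0 in all 12 libraries, and Snrpn, Airn and Rasgrf1 each had counts in 1 library only and were not tested.

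RNA was sequenced from primordial germ cells, from which eggs later form, of female mouse embryos at E14.5. The cells had been sorted with an Oct4-GFP reporter, which all groups therefore carried, and each library came from 5000 cells. The 4 groups of 3 libraries were WT (wild type), HxD (Tet1HxD/HxD, a TET1 protein without catalytic activity), V (Tet1V/V, a TET1 described as stalling at 5-hydroxymethylcytosine) and KO (Tet1-/-). The labels leave unsaid whether replicates came from different embryos or litters. The p-values therefore measure the spread among libraries, some of which may be technical.

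Imprinted genes carry DNA methylation on 1 parental copy only, at short control regions, and this mark decides which copy is transcribed. Primordial germ cells erase these marks before eggs or sperm set new ones, and TET enzymes, which oxidize 5-methylcytosine, take part in the erasure. The comparison with WT asks how far transcript levels of imprinted genes depend on TET1 and on its catalytic activity. Counts per gene do not tell the maternal from the paternal copy, so they show the summed output of both.

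Total counts ranged from 18471158 to 29495313 per library, and genes with a count from 12568 in KO3 to 17614 in HxD3. The 12 germ cell markers were detected in every library and summed to 3790 to 4600 CPM (that is, counts per library total after TMM scaling). Among them edgeR called Dazl lower in all 3 mutants (log2 -1.09, -1.15 and -1.22 for HxD, KO and V, adjusted p = 0.0197, 0.00217 and 0.00312), as well as Mael (log2 -2.06, -2.96 and -2.03, adjusted p = 0.000607, 7.21e-07 and 0.000755). It called Sox2 and Tfap2c higher in KO and Pou5f1, which encodes OCT4, higher in V (log2 1.14, adjusted p = 0.0397). The 10 supporting cell markers summed to 15.3 to 72.4 CPM and the 10 markers of stroma and mesonephros to 3.13 to 18.4 CPM over all libraries. The 5 endothelial markers summed to 2.30 to 19.9 CPM and the 8 blood markers to 0.597 to 34.3 CPM. Tet1 had 91.4, 180.1 and 215 CPM in WT and 131, 158 and 80.8 in KO, with overlap. The stretch of Tet1 that the KO allele lacks is not stated in the labels, so these whole-gene counts do not check them.

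The following stretches of promoter sequence are shown because the results below turn on these genes. They are RefSeq sequences of GRCm38.p6, printed 5′ to 3′ on the strand of the gene, and 24 of the 31 genes had a window in that table. For Plagl1, Kcnq1ot1 and Snurf they cover the 250 bases before the annotated start. The Snurf start is also 1 of the 4 annotated starts of Snrpn. The last is the 96 bases between the outermost ends of the divergent Peg3 and Usp29 in the RefSeq gene table, which lie within the longer interval between the starts of their windows, on the Peg3 strand. Capitals mark the hexamer TGCCGC, read as GCGGCA on the other strand, which is the core of the site bound by ZFP57, the protein that protects imprints.
Plagl1, chr10:13090582-13090831, plus strand: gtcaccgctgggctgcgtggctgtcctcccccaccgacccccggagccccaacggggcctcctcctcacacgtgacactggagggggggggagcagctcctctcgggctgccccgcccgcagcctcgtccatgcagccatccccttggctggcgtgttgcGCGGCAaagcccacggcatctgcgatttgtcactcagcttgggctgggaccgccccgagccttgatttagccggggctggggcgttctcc
Kcnq1ot1, chr7:143296548-143296797, minus strand: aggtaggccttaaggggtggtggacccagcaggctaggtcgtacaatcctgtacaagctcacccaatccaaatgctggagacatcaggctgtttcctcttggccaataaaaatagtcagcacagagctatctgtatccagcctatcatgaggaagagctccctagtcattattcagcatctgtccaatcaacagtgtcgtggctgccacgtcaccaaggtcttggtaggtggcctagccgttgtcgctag
Snurf and Snrpn, chr7:60005200-60005449, minus strand: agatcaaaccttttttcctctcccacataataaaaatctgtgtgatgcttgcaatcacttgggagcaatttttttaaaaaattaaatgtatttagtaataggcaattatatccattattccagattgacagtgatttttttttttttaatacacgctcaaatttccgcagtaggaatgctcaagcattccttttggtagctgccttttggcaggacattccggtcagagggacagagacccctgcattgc
Peg3 and Usp29, chr7:6730463-6730558, minus strand: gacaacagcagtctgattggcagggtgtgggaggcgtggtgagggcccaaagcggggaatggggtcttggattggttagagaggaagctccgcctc
The Plagl1 stretch held 19 CpG dinucleotides and 1 hexamer, the Kcnq1ot1 stretch 5 CpG and the other pair 3 CpG each, without a hexamer. In the full windows of 300 bases, which reach 50 bases past the start, the hexamer was found for 8 of the 24 genes, Plagl1, Mest, Nap1l5, Igf2, Snrpn, Snurf, Nnat and Mcts2. By windows, it was in 9 of the 36 windows of members and in 11.6% of all 32851 windows of that length. The 9 count the shared window of Snrpn and Snurf under each gene, and also nearly identical windows of Mest. Windows of members held a median of 11.5 CpG against 7 in all windows, and the hexamer itself contains a CpG. The 2 shares are therefore not like for like. A match is a description of the letters and no evidence of binding.

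Across the 26 tested genes, Plagl1 was the 1 gene called in any comparison. It rose in KO, and no other paternally expressed gene passed the test in HxD, KO or V (edgeR quasi-likelihood test, adjusted p under 0.05 over all genes). Among the 17 members averaging 5 CPM or more, many kept the sign of their estimate in all 3 mutants. It was positive for Peg3, Mest, Plagl1, Ndn, Peg12, Mcts2, Impact and Sfmbt2 and negative for Igf2, Kcnq1ot1 and Inpp5f. Of these differences only that of Plagl1 in KO passed the test. The share of all genes that kept their sign was not computed. These comparisons share the 3 WT libraries, so their directions are not independent of each other. In these bulk samples, fewer cells of a type and less RNA per cell cannot be told apart.

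In KO against WT, 1 of the 26 genes was called, against 1.22% of all genes (0.724% higher and 0.495% lower). Estimates were positive for 16 and negative for 10, with a median log2 fold change of 0.55, where all tested genes had a median of -0.02. The median was 0.21 when genes averaging under 5 CPM were left out. In HxD, 0 of 26 were called, against 0.0309% of all genes (0.00619% higher and 0.0247% lower), with 16 estimates positive, 9 negative and 1 at 0, and a median of 0.13 (-0.01 for all genes). In V, 0 of 26 were called, against 0.155% of all genes (0.068% higher and 0.0866% lower), with 16 estimates positive and 10 negative and a median of 0.12 (0 for all genes). The 16 positive estimates are 61.5% of the 26, where 49.3%, 48.6% and 49.8% of all genes were positive in HxD, KO and V. Among these 16 are Sgce in each mutant and Rtl1 in KO and V, with at most 1 count in any WT library. Both passed the filter on low counts only through mutant libraries, so their positive signs are no support. They also enter the medians over the 26 genes. At an unadjusted p under 0.05 there were 3 of the 26 genes in HxD, 6 in KO and 5 in V, where 7.25%, 13.2% and 9.69% of all genes passed. DESeq2 and limma-voom also called 0 in HxD and in V. In the 3 comparisons between mutants edgeR called 0 of the 26, as did DESeq2 and limma-voom, with 1 gene each at an unadjusted p under 0.05 (Slc38a4 in HxD against KO, Plagl1 in V against KO and Rtl1 in V against HxD). Rtl1, also among the 5 in V against WT, was at 0 in every WT and HxD library. It passed the filter on low counts only through KO1, V1 and V2, so its p is no support for a difference. Over all 16166 genes edgeR called 0% in those comparisons.

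**Figure D1:**
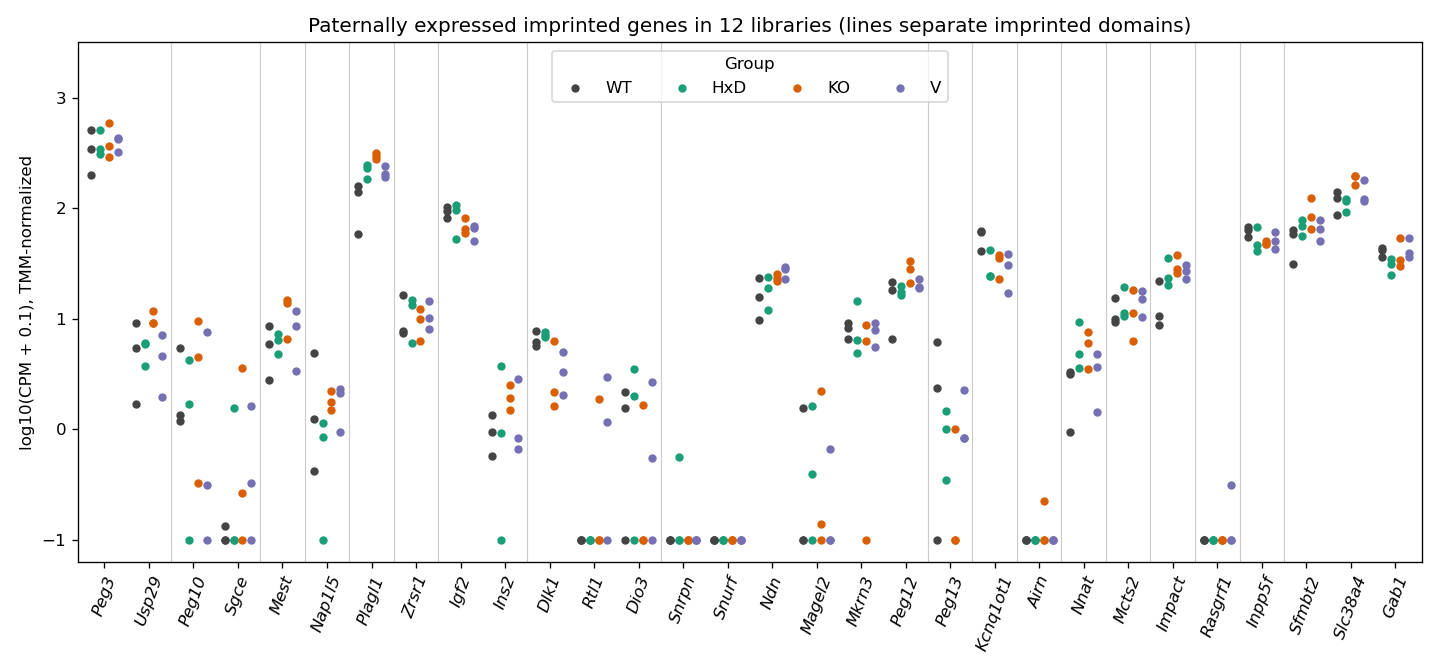
Level of each of the 30 genes with a row, as log10(CPM + 0.1) per library, coloured by group, with vertical lines between imprinted domains. Peg3, Plagl1 and Slc38a4 lie highest, Plagl1 lies above WT in all 9 mutant libraries, and Snurf lies at the bottom (0 counts) in all 12.

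Plagl1 encodes a zinc finger transcription factor that restrains proliferation and regulates other imprinted genes. Its level was 58.3, 159 and 140.5 CPM in the WT libraries and 279.5, 299.8 and 319 in KO. HxD had 244, 184 and 232 CPM and V had 190.3, 241 and 202. Each of the 9 mutant libraries lay above the highest WT library. WT1 was the lowest of the 12 and the KO libraries were the 3 highest. Plagl1 rose in KO by 1.33 ± 0.24 (SE) on the log2 scale (edgeR, adjusted p = 0.00455, n = 3), from 119 ± 53.5 to 299 ± 19.8 CPM (SD). The log2 fold change was 0.89 ± 0.24 in HxD and 0.83 ± 0.24 in V, neither called (edgeR, adjusted p = 0.255 and 0.155, n = 3).

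The mutants were also compared with one another for Plagl1. V differed from KO by -0.50 ± 0.23 and HxD from KO by -0.44 ± 0.23 on the log2 scale (edgeR, adjusted p = 0.945 and 1, n = 3). The V libraries all lay below the KO libraries, as did the HxD libraries. A difference between the mutants was therefore not shown, although only KO passed the test against WT. Fitted with the KO and WT libraries alone, the KO call was lost at adjusted p = 0.0709 (edgeR, log2 1.30). Leaving out single libraries, 12 fits in all, it kept its call, at 1.004 to 1.57 on the log2 scale and an adjusted p of at most 0.00514. Without WT1 the estimates were 0.56 in HxD and 0.50 in V. The members summed to 738 CPM in WT1, 1063 in WT2, 1175 in WT3 and 1037 to 1544 in the mutant libraries. Not every member was low in WT1. It was the lowest WT library for the abundant Peg3, Plagl1 and Slc38a4 and the highest for others, such as Kcnq1ot1, Inpp5f, Ndn and Mcts2. WT1 also had the highest summed supporting cell and blood markers of the WT libraries, at 60.7 and 34.0 CPM. The part of such cells in its low sum was not tested.

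Hymai, a noncoding transcript of the Plagl1 locus, had 0, 0 and 0 counts in WT and 344, 101 and 0 in KO. It had 0, 11 and 178 counts in HxD and 57, 22 and 10 in V, so that every V library but only 2 of 3 KO and HxD libraries had any. A count of 3 in a library corresponds to 0.0996 to 0.168 CPM, a floor for counting error only. Hymai was not called (edgeR, adjusted p = 0.425, 0.0828 and 0.259 for HxD, KO and V, n = 3) and, at 0 in every WT library, it entered the test only through mutant libraries. In KO the supporting cell markers summed to 15.5 to 18.9 CPM, below the 26.4 to 60.7 CPM of WT. Markers of stroma and mesonephros summed to 3.13 to 16.4 CPM in KO and 5.86 to 8.31 in WT. Single markers of that list were detected in 2 (Tcf21, Dcn and Lum) to 10 (Pdgfra) of the 12 libraries. Of the germ cell markers, Dazl, an RNA-binding protein gene of germ cells, had 1923, 1666 and 1207 CPM in WT and 846, 608 and 703 in KO, and Mael, which acts in piRNA silencing, had 211, 154 and 144 and 17.7, 25.7 and 22.1. Both fell in KO, and Sox2 and Tfap2c rose (edgeR, log2 0.94 and 1.07, adjusted p = 0.0156 and 0.0262, n = 3). The part of such cells, or of the germ cell marker differences, in the Plagl1 difference was not tested.

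**Figure D2:**
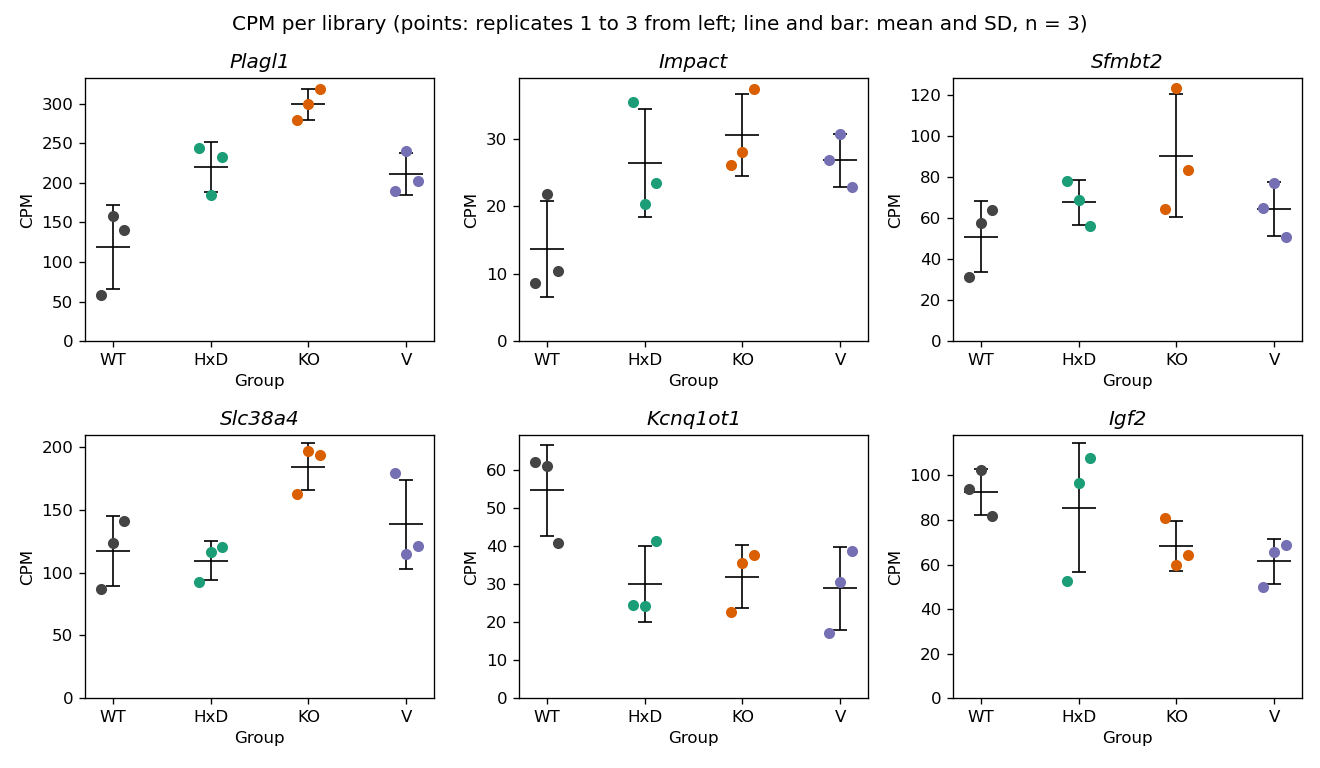
CPM per library for Plagl1, Impact, Sfmbt2, Slc38a4, Kcnq1ot1 and Igf2 by group, with the mean and SD of 3 libraries. Plagl1 separates all mutant libraries from WT, and Slc38a4 and Sfmbt2 separate KO from WT, whereas Igf2 in HxD spans the WT range.

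In the Impact domain, Impact, which encodes a regulator of translation through the GCN pathway, had 8.62, 21.8 and 10.4 CPM in WT. It had 35.5, 20.3 and 23.5 CPM in HxD, 26.1, 28.1 and 37.4 in KO and 26.8, 30.8 and 22.9 in V. KO and V did not overlap WT, and of the HxD libraries only HxD2 lay within the WT range, just under WT2. The log2 fold changes were 0.96 ± 0.37 (SE) for HxD, 1.17 ± 0.38 for KO and 0.98 ± 0.37 for V, none called (edgeR, adjusted p = 0.582, 0.133 and 0.359, n = 3). With 1 library left out in turn the KO estimate ranged from 0.93 to 1.66, with an adjusted p of at least 0.0508.

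Kcnq1ot1 is the long antisense RNA of the Kcnq1 domain, transcribed from the paternal copy and known to silence its neighbours there. In 8 of 9 mutant libraries it lay below the lowest WT library. WT libraries had 62.0, 61.1 and 40.7 CPM, against 24.4, 24.1 and 41.4 in HxD, 22.6, 35.7 and 37.6 in KO and 17.2, 30.6 and 38.7 in V. In KO and V all libraries lay below WT, and in HxD the single overlap was HxD3, at 41.4 CPM against 40.7 in WT3. Log2 fold changes were -0.86 ± 0.32 (SE) for HxD, -0.77 ± 0.32 for KO and -0.92 ± 0.32 for V, none called (edgeR, adjusted p = 0.551, 0.284 and 0.292, n = 3). Cdkn1c, a cell cycle inhibitor, had 114 ± 36.3 CPM in WT and 71.0 ± 12.7 in KO. Its log2 fold changes were -0.57 for HxD, -0.69 for KO and -0.46 for V, none called (edgeR, adjusted p = 0.571, 0.125 and 0.502, n = 3). Phlda2, a growth regulator of the placenta, rose in KO by 0.94 ± 0.21 on the log2 scale (edgeR, adjusted p = 0.0227, n = 3). Kcnq1, within which Kcnq1ot1 lies, had at most 2.16 CPM, and only 1.20% of the exonic bases of Kcnq1ot1 are shared with other genes in the GENCODE M21 annotation.

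The Peg3 domain has Peg3, a zinc finger gene with roles in maternal care and growth, and Usp29, a ubiquitin protease gene, which start close together and run in opposite directions. Peg3 had 198, 341 and 510.2 CPM in WT, 514, 345 and 309 in HxD, 369, 587 and 293 in KO, and 432, 421 and 325 in V. It was among the most abundant members, and its WT libraries alone spanned 198 to 510 CPM, a range that took in 7 of the 9 mutant libraries. Its log2 fold changes were 0.15 ± 0.26 (SE) for HxD, 0.25 ± 0.26 for KO and 0.16 ± 0.26 for V (edgeR, adjusted p = 0.999, 0.738 and 0.946, n = 3), and without WT1 all 3 were below 0. Usp29 had 5.32, 9.01 and 1.59 CPM in WT, 5.89, 3.63 and 5.82 in HxD, 9.12, 9.03 and 11.7 in KO, and 6.96, 1.86 and 4.46 in V. The KO libraries lay above WT by a small margin, 9.03 CPM in KO2 against 9.01 in WT2, and the difference was not called (edgeR, log2 0.90 ± 0.85, adjusted p = 0.698, n = 3). Of the exonic bases of Usp29, 14.8% are shared with other genes, mostly Zim3 on the other strand.

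Peg10 and Sgce also share a start region and point away from each other. Peg10, derived from a retrotransposon and needed in placenta, had 154, 23 and 31 counts in WT, 0, 38 and 111 in HxD, 6, 107 and 214 in KO, and 134, 0 and 6 in V. Its libraries within a group ranged from 0 or near 0 to over 100 counts in HxD, KO and V. Sgce, a sarcoglycan gene, had at most 1 count in any WT library, 0, 0 and 39 in HxD, 91, 4 and 0 in KO and 4, 46 and 0 in V. Neither was called (edgeR, adjusted p in KO 0.887 and 0.465, n = 3). Sgce passed the filter on low counts through HxD3, KO1 and V2.

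Mest, a hydrolase gene of mesodermal tissue, had 2.68, 8.54 and 5.82 CPM in WT, 4.69, 7.25 and 6.31 in HxD, 13.7, 6.50 and 14.6 in KO, and 11.6, 3.29 and 8.43 in V. KO1 and KO3 were the 2 highest libraries, while KO2 lay inside the WT range, and the log2 fold change in KO was 1.03 ± 0.72 (edgeR, adjusted p = 0.559, n = 3). Of its exonic bases, 23.1% overlap Copg2 on the opposite strand. Copg2 itself differed little, at 200.1 ± 21.0 CPM in WT and 197 ± 16.6 in KO (edgeR, log2 -0.02 ± 0.18, adjusted p = 0.98, n = 3).

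The Igf2-H19 domain is controlled by a region methylated on the paternal copy. Igf2, a fetal growth factor, had 93.9, 103 and 81.9 CPM in WT and 52.5, 96.6 and 108 in HxD. KO had 81.1, 59.8 and 64.2 CPM and V had 49.9, 65.7 and 68.6. KO and V lay below WT without overlap, KO1 by less than 1 CPM, and HxD held both the highest library of all and one of the lowest. The log2 fold changes were -0.12 ± 0.23 (SE) for HxD, -0.44 ± 0.24 for KO and -0.59 ± 0.24 for V (edgeR, adjusted p = 0.999, 0.422 and 0.393, n = 3). H19, the maternally expressed RNA of the domain, was at 244 ± 92.4 CPM in WT and 281 ± 75.3 in V, and the difference was 0.20 ± 0.24 on the log2 scale (edgeR, adjusted p = 0.912, n = 3). Ins2, an insulin gene beside Igf2, had 36, 18 and 12 counts in WT, 0, 87 and 22 in HxD, 37, 58 and 41 in KO, and 13, 17 and 77 in V. In GENCODE M21, 64.5% of the Igf2 exonic bases are shared with other annotated genes, so its counts are uncertain.

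In the Dlk1-Dio3 domain, Dlk1, a ligand-like inhibitor of Notch signalling, had 6.08, 7.60 and 5.58 CPM in WT, 6.80, 7.50 and 7.01 in HxD, 2.10, 1.53 and 6.25 in KO, and 1.97, 3.22 and 4.92 in V. The V libraries lay below WT and HxD lay inside its range, while KO3 was level with WT and the other KO libraries were near 2 CPM. None of this was called (edgeR, log2 0.15 ± 0.92 (SE) for HxD, -0.96 ± 0.93 for KO and -0.93 ± 0.93 for V, adjusted p = 0.999, 0.711 and 0.868, n = 3). Rtl1, a retrotransposon-derived gene of the placenta, was at 0 in every WT and HxD library and had counts in KO1, V1 and V2 only, at 47, 19 and 86. The thyroid hormone deiodinase gene Dio3 had 60, 0 and 37 counts in WT, 0, 82 and 51 in HxD, 0, 38 and 0 in KO, and 8, 0 and 73 in V. Meg3, the maternally expressed RNA of the domain, had 25.1 ± 3.42 CPM in WT and 14.4 ± 2.38 in KO (edgeR, log2 -0.80 ± 0.39, adjusted p = 0.379, n = 3).

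In the Prader-Willi domain, Snrpn and Snurf, which encode a splicing protein and a small protein from 1 shared transcript, were nearly absent from the table. Snrpn had 11 counts in HxD2 and 0 elsewhere, and Snurf none. All exonic bases of Snurf lie in exons of other genes, Snrpn among them, and 34.1% of those of Snrpn are shared. The sources used here do not give how reads shared by genes were counted, so these values do not show that the locus was silent. Ndn, a MAGE family gene that restrains cell growth, had 23.1, 15.8 and 9.68 CPM in WT, 11.9, 18.9 and 24.0 in HxD, 25.2, 23.2 and 22.0 in KO, and 23.0, 28.2 and 29.1 in V. V2 and V3 lay above the WT range and V1 just inside it, at 23.0 CPM against 23.1 in WT1. Its log2 fold change in V was 0.73 ± 0.38 (edgeR, adjusted p = 0.552, n = 3).

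Peg12, related to the Frat genes of Wnt signalling, had 6.53, 21.2 and 18.2 CPM in WT, 19.8, 16.3 and 17.5 in HxD, 27.9, 20.8 and 33.4 in KO, and 23.0, 19.4 and 18.9 in V. The estimate in KO was 0.84 ± 0.40 on the log2 scale (edgeR, adjusted p = 0.365, n = 3), with KO2 inside the WT range. Mkrn3, a ubiquitin ligase gene linked to puberty, had 9.04, 6.52 and 8.17 CPM in WT, 14.4, 6.29 and 4.78 in HxD, 6.14, 8.61 and 0 in KO, and 9.15, 5.51 and 7.86 in V. KO3 stood apart with no count, and the KO estimate of -0.68 turned to 0.10 when KO1 and KO3 were left out together with HxD1. Magel2 had a count in 6 libraries, at most 51. These 4 genes have a single exon, and Ndn, Magel2, Mkrn3 and Peg12 were each not called in any mutant.

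The Nnat, Mcts2, Nap1l5 and Zrsr1 genes are short genes that lie within introns of other genes, and their promoters carry maternal methylation. Nnat, a membrane proteolipid gene of neurons, had 3.06, 0.844 and 3.23 CPM in WT, 3.45, 4.71 and 9.25 in HxD, 3.40, 5.88 and 7.53 in KO, and 1.35, 4.72 and 3.58 in V. HxD and KO lay above WT without overlap, and V1 was the 1 mutant library inside the WT range, with log2 fold changes of 1.29 ± 1.06 (SE) for HxD, 1.23 ± 1.06 for KO and 0.44 ± 1.05 for V (edgeR, adjusted p = 0.913, 0.66 and 0.973, n = 3). Mcts2, a retrogene copy of the translation factor gene Mcts1, had 15.4, 9.94 and 9.16 CPM in WT, 11.2, 19.2 and 10.4 in HxD, 18.0, 11.3 and 6.25 in KO, and 17.9, 10.3 and 15.1 in V. The groups overlapped throughout (edgeR, adjusted p of at least 0.946). Zrsr1, a retrogene copy of the splicing factor gene Zrsr2, had 7.35, 7.60 and 16.3 CPM in WT, 5.89, 14.7 and 13.3 in HxD, 6.22, 12.1 and 9.86 in KO, and 8.03, 14.3 and 10.1 in V and likewise overlapped in each comparison (edgeR, adjusted p of at least 0.95). Reads of these copies can be shared with their source genes. Nap1l5, a histone chaperone family gene, had 33, 103 and 8 counts in WT, 0, 25 and 20 in HxD, 56, 40 and 32 in KO, and 15, 67 and 57 in V, from 0 in HxD1 to 103 in WT2.

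Peg13, a noncoding RNA inside Trappc9, had 175, 48 and 0 counts in WT, 26, 6 and 37 in HxD, 0, 22 and 0 in KO, and 13, 66 and 21 in V. WT1 held 175 of its counts, and WT3, KO1 and KO3 none, so its direction rests on single libraries. Airn, the antisense RNA that silences Igf2r in somatic cells, had 3 counts in KO2 and 0 elsewhere. Igf2r, the receptor that clears IGF2, was at 385 ± 68.2 CPM in WT and 469 ± 129.9 in KO (edgeR, log2 0.29 ± 0.20, adjusted p = 0.56, n = 3). Rasgrf1, a Ras activator of neurons, had 6 counts in V3 and 0 elsewhere. The Inpp5f gene, a phosphatase whose imprinted form starts within the gene, had 68.3, 55.3 and 62.9 CPM in WT, 66.9, 41.2 and 46.6 in HxD, 50.6, 47.5 and 47.5 in KO, and 50.4, 42.3 and 60.9 in V. The KO libraries lay below WT and most HxD and V libraries did too, with log2 fold changes of -0.27 ± 0.24 (SE) for HxD, -0.36 ± 0.24 for KO and -0.28 ± 0.24 for V (edgeR, adjusted p = 0.94, 0.53 and 0.802, n = 3). Counts per gene do not tell the imprinted form from the longer one.

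**Figure D3:**
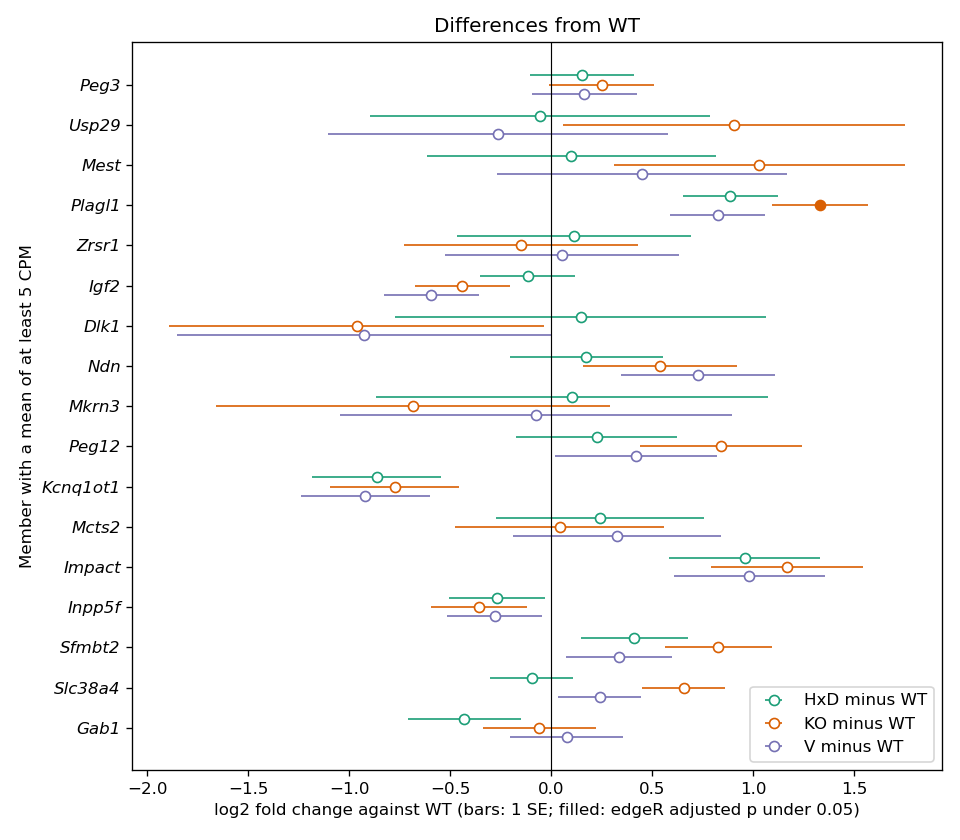
Log2 fold change against WT (edgeR, bars 1 SE) for the 17 members averaging at least 5 CPM, with filled symbols for adjusted p under 0.05. Plagl1 in KO, at 1.33, is the 1 filled symbol, and Kcnq1ot1 lies below 0 in all 3 mutants, at -0.86, -0.77 and -0.92.

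The last group holds genes whose imprint is known from placenta and, for some, rests on histone marks of the egg. Slc38a4, an amino acid transporter of placenta and liver, had 86.7, 124 and 141 CPM in WT and 92.3, 117 and 121 in HxD. KO had 163, 197 and 194 CPM and V had 179, 115 and 121. The KO libraries lay above WT and above HxD, and V1 was the single V library in the KO range. The log2 fold change was 0.66 ± 0.21 in KO against WT (edgeR, adjusted p = 0.125, n = 3), and HxD minus KO was -0.75 ± 0.21. The latter was not called either (edgeR, adjusted p = 1, n = 3).

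Sfmbt2, a polycomb family gene required in the placenta, had 31.3, 57.9 and 63.9 CPM in WT, 78.3, 69.1 and 56.4 in HxD, 64.7, 124 and 83.6 in KO, and 65.0, 77.5 and 50.9 in V. KO lay above WT by less than 1 CPM at the closest, and KO2 was the highest library (edgeR, log2 0.83 ± 0.26, adjusted p = 0.129, n = 3). Without WT3, Slc38a4 and Sfmbt2 were both called in KO (edgeR, adjusted p = 0.0456 for each). With 1 library left out in turn, the KO estimates ranged from 0.48 to 0.81 for Slc38a4 and from 0.54 to 1.03 for Sfmbt2. WT1 was the lowest WT library for both. Over all alternatives the adjusted p ranged from 0.0456 to 0.496 for Slc38a4 and from 0.00373 to 0.510 for Sfmbt2. Gab1, an adaptor of growth factor receptors, had 36.3, 43.3 and 42.2 CPM in WT, 24.9, 31.2 and 34.4 in HxD, 33.8, 53.3 and 30.0 in KO, and 53.7, 35.9 and 39.0 in V. HxD lay below WT, KO and V on both sides of it, and none was called (edgeR, log2 -0.43 ± 0.28 (SE) for HxD, -0.06 ± 0.28 for KO and 0.08 ± 0.28 for V, adjusted p = 0.803, 0.959 and 0.985, n = 3).

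The groups were next compared by overlap of their CPM values. In KO, 7 of the 26 tested members lay wholly above WT and 3 wholly below, where 8.17% and 8.36% of all genes did. The 7 were Usp29, Plagl1, Ins2, Nnat, Impact, Sfmbt2 and Slc38a4, and the 3 were Igf2, Kcnq1ot1 and Inpp5f. In HxD, 2 lay above (Plagl1 and Nnat; 6.43% of all genes) and 1 below (Gab1; 5.77%). In V, 2 lay above (Plagl1 and Impact; 8.70%) and 3 below (Igf2, Dlk1 and Kcnq1ot1; 7.48%).

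Members also differed among themselves in level. Per kilobase of exon in GENCODE M21, the WT order was led by Slc38a4 at 27.5 ± 6.55 CPM per kb (SD, n = 3), Peg3 at 26.3 ± 11.7, Igf2 at 16.2 ± 1.81, Plagl1 at 15.2 ± 6.84 and Mcts2 at 12.6 ± 3.70. Each overlapped the next over its WT libraries, and the first gap came between Mcts2 and Gab1, at 7.99 ± 0.743. Another gap separated Dlk1, at 1.13 ± 0.186, from Ins2, at 0.650 ± 0.289. Kcnq1ot1 was at 0.587 ± 0.129 CPM per kb over an annotated exonic length of 93092 bases.

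Detection of the weaker members differed between libraries of the same group. Of the 30 genes with a row, 11 were at 0 in HxD1 and 10 in KO3, the libraries with the fewest genes captured (12815 and 12568). In HxD3, KO2 and V3, with at least 17334 genes each, 5, 4 and 5 members were at 0, and in WT1, WT2 and WT3 there were 6, 7 and 8. Of the 9 tested members with a mean under 5 CPM, 7 were at 0 in HxD1 and 1 in HxD3. A 0 for Peg10, Sgce, Nap1l5, Ins2, Rtl1, Dio3, Magel2 or Peg13 in a single library is therefore given without a direction.

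**Figure D4:**
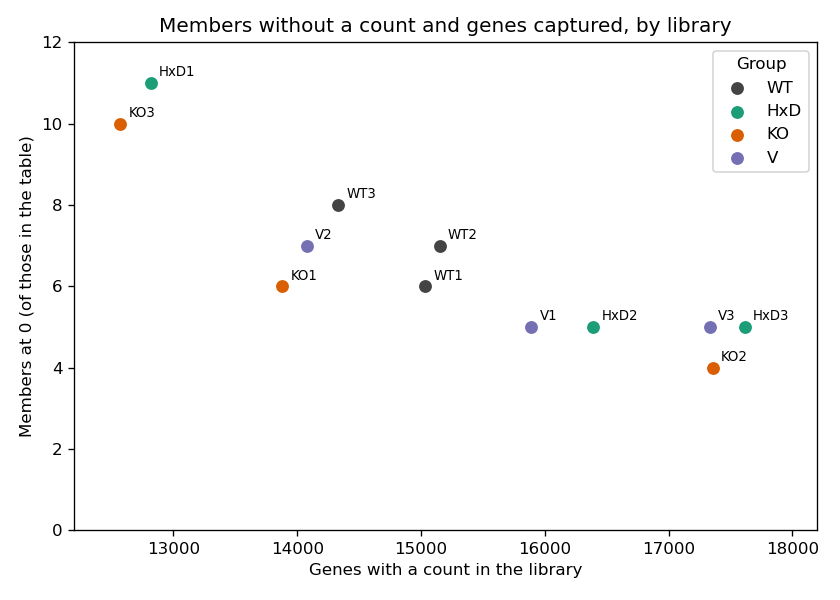
Members at 0, of the 30 with a row, against the number of genes with a count in the same library, 1 point per library. HxD1 and KO3 stand at the upper left with 11 and 10 members at 0, and HxD2, HxD3, KO2, V1 and V3, with at least 15890 genes, have 4 or 5.

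Ratios of a member to its neighbour or host gene within a library do not depend on scaling. They were computed for 10 of 13 listed pairs, those with a mean of at least 20 counts for both genes, and each mutant was compared with WT. With 3 against 3 libraries the exact permutation test (two-sided) cannot go below 0.1. That value was reached in 4 of 30 comparisons, at an adjusted p of 0.75. They were Nnat to its host Blcap, higher in HxD and KO (log2 ratio -2.92 ± 0.88 and -3.13 ± 0.62 against -4.67 ± 1.13 in WT, SD, n = 3, exact p = 0.1), and Dlk1 to Meg3. Blcap itself averaged 52.9 CPM in WT and 41.0, 46.7 and 36.2 in HxD, KO and V, with every mutant library below WT. It was not called (edgeR, log2 -0.37, -0.18 and -0.55, adjusted p = 0.822, 0.822 and 0.475, n = 3). Dlk1 to Meg3 was -1.97 ± 0.18 in WT, -1.31 ± 0.56 in HxD, above WT, and -2.92 ± 0.43 in V, below it (SD, n = 3, exact p = 0.1 for each). In KO it was -2.37 ± 1.30, with libraries on both sides of WT. Without HxD1 the difference of HxD from WT went from 0.65 to 0.34 on the log2 scale. Igf2 to H19 was -1.33 ± 0.58 in WT and between -2.17 and -1.83 in the mutants, with overlapping libraries. Kcnq1ot1 to Cdkn1c differed from WT by -0.359 in HxD, -0.124 in KO and -0.555 in V (exact permutation test, p = 0.4, 0.8 and 0.3, n = 3). This ratio overlapped WT in all mutants, as did Mest to Copg2, Zrsr1 to Commd1 and Mcts2 to H13. The ratios of Peg3 to Zim1, Nap1l5 to Herc3 and Peg13 to Trappc9 include libraries where 1 gene of the pair was at 0, so their extremes depend on the count of 1 added to both. Airn to Igf2r, Sgce to Ppp1r9a and Snrpn to Ube3a had too few counts of the member.

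**Figure D5:**
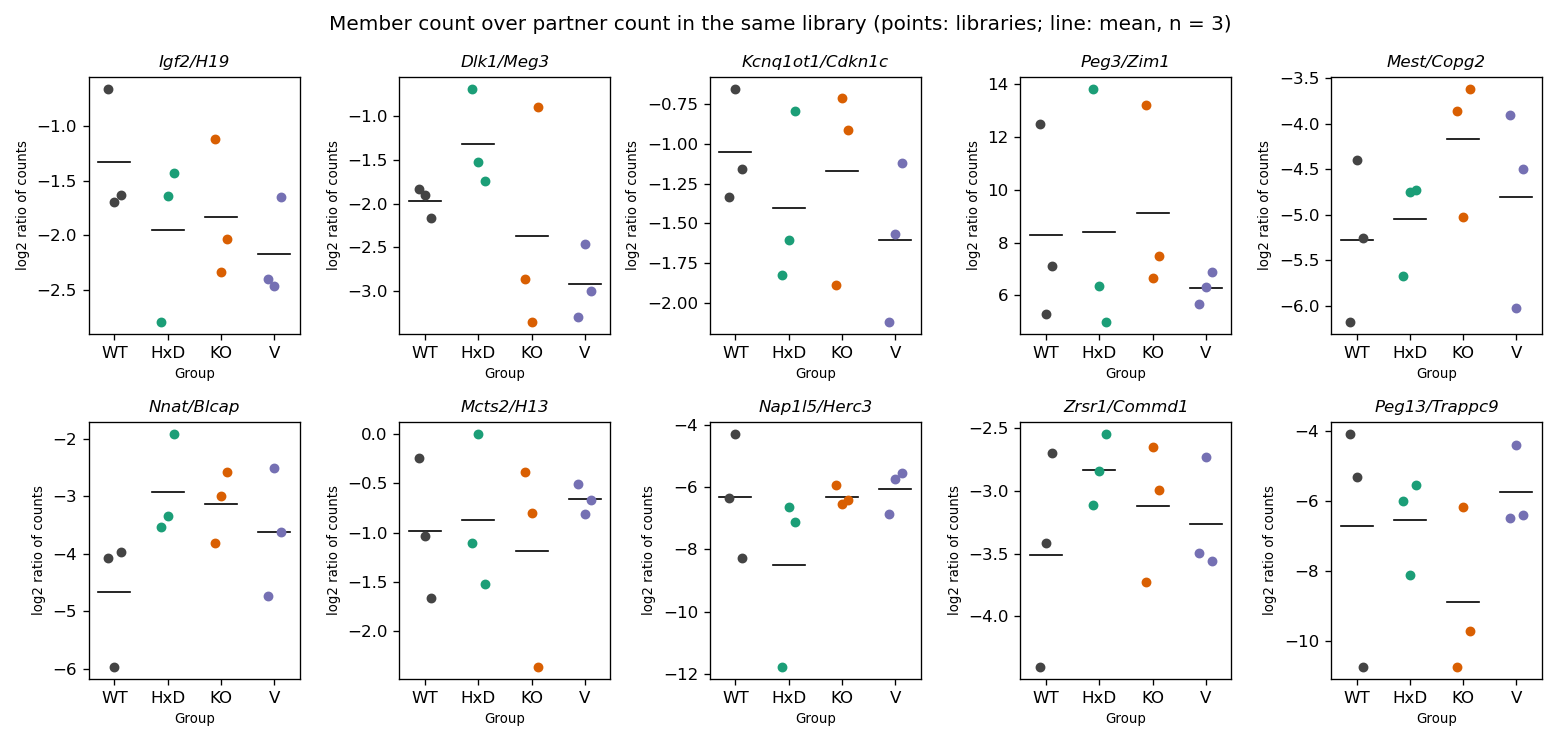
Log2 ratio of the count of a member to that of its neighbour or host gene, per library (a count of 1 added to both), with the mean of 3 libraries as a line, for 10 pairs. Dlk1 to Meg3 lies above WT in HxD and below it in V, and Nnat to Blcap lies above WT in HxD and KO.

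Of 40 neighbouring imprinted or host genes, 32 were tested. In KO edgeR called 1 higher, Phlda2, and 0 lower (0.724% and 0.495% of all genes), with a median log2 fold change of -0.04. In HxD and V edgeR and limma-voom called 0 (edgeR called 0.0309% and 0.155% of all genes). At an unadjusted p under 0.05 edgeR had 7 of the 32 in HxD, 11 in KO and 7 in V. Of all genes, 7.25%, 13.2% and 9.69% passed. The neighbours that passed include Hymai, Mirg and Slc22a3 in each mutant. They entered the test only through mutant libraries, so their p is no support and the shares are not like for like. DESeq2 called Hymai in HxD, Hymai and Mirg in V, and Phlda2, Hymai, Mirg and Slc22a3 in KO. Of these Hymai, Mirg and Slc22a3 were at 0 in every WT library and so passed the filter only through mutant libraries. Of 30 factors that erase or maintain imprints, 27 were tested. In KO edgeR called 1 higher and 1 lower (0.724% and 0.495% of all genes). Uhrf1, which brings DNMT1 to replicating DNA, fell in KO by 1.02 on the log2 scale (edgeR, adjusted p = 0.0223). Its HxD and V libraries also all lay below WT, at a log2 fold change of -0.92 in each, not called (edgeR, adjusted p = 0.193 and 0.0841). Suz12, a subunit of the polycomb complex that writes H3K27me3, rose in KO from 234 ± 44.8 to 380.0 ± 32.4 CPM (edgeR, log2 0.70 ± 0.17, adjusted p = 0.0409, n = 3). At an unadjusted p under 0.05 edgeR had 5 of the 27 in HxD, 7 in KO and 5 in V, where 7.25%, 13.2% and 9.69% of all genes passed. In HxD and V edgeR and limma-voom called 0 of the 27, and DESeq2 called Uhrf1 in HxD and Uhrf1, Arid4a and Eed in V. In KO DESeq2 called Ctcf besides Suz12 and Uhrf1, and limma-voom called Suz12 and Uhrf1. Zfp57 had 0.515, 2.35 and 2.91 CPM in WT and at most 6.03 in any library, Trim28, its corepressor, had 1257 to 1743 CPM, and Dnmt1 had 670 to 895 CPM.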

How the data were processed

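RNA sequencing libraries of sorted female germ cells were analysed from 1 table of whole-number counts per gene that the authors deposited without normalization. The tools named are featureCounts 2.0.3, STAR 2.7.10b, SAMtools 1.9, Trim Galore 0.6.7 and FastQC, and the builds GRCm39 and mm10, all without roles, per the submitters' processing notes. Strand setting, annotation and treatment of shared reads: not given in the sources used here. Overlapping genes, antisense partners and retrogene copies are therefore uncertain. Groups and replicate numbers came from the sample titles.

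Counts as deposited were tested with edgeR 4.0.16 in R 4.3.3 (two-sided quasi-likelihood F test), with TMM, filterByExpr and 1 fit of all 12 libraries by group. Benjamini-Hochberg adjustment ran over 16166 genes, and an adjusted p under 0.05 was called. Standard errors are the estimate over the square root of F. Alternatives were DESeq2 1.42.0, limma-voom (limma 3.58.1), DESeq2 size factors, other filters, 2 groups alone, a replicate block and libraries left out. The scripts were tested on simulated data.

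The members and lists were chosen with earlier results of these data known. Values in every library are given for members called anywhere, for the 3 largest differences in each direction per mutant at a mean of at least 5 CPM, and for the most abundant member of each domain; other members are given with counts or levels as needed. Exon lengths and overlaps came from GENCODE M21 and promoter sequences from RefSeq (GRCm38.p6). The count table itself holds no coordinates.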

Additional observations from a re-analysis of the deposited data

Results flagged for a closer look

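The log2 ratio of Dlk1 to Meg3 lay on opposite sides of the same WT libraries in HxD and V. All 3 HxD libraries lay above WT and all 3 V libraries below it, and HxD exceeded V by 1.61 on the log2 scale. The opposite sides are those of the ratio and not of Dlk1 alone, which lay inside the WT range in HxD and below it in V. In HxD the log2 fold change against WT was 0.15 for Dlk1 and -0.43 for Meg3. In V it was -0.93 for Dlk1 and 0.04 for Meg3, and none of these was called (edgeR). Meg3 overlapped WT in both mutants. The pair was picked because its groups lay on opposite sides of WT. This fixes the p of HxD against V at 0.1, its lowest value (exact permutation test), so that p is no support for the difference. Each comparison with WT had p = 0.1 (exact permutation test, two-sided) and an adjusted p of 0.75 over 30 comparisons. Dlk1 had 35 to 193 counts in these 6 libraries.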

How the results depend on the processing

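The number of members called in HxD was 0 and became 1 without a filter on low counts and 1 without HxD1, KO1 and KO3, Plagl1 each time. In KO it was 1 and became 2 without a filter, 2 without HxD1, KO1 and KO3 (with Sfmbt2 added in both) and 0 when only KO and WT were fitted; it ranged from 1 to 3 with 1 library left out, the 3 being without WT3. In V it was 0 and became 1 without a filter (Plagl1) and 2 without HxD1, KO1 and KO3, where Plagl1 was higher and Kcnq1ot1 lower (edgeR, adjusted p = 0.0451 for Kcnq1ot1). In that fit KO is 1 library, whose spread is taken from the other groups. Under the remaining alternatives, DESeq2 and limma-voom included, the counts of members did not change, and in comparisons between mutants they were 0 throughout.

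Counts over all genes moved more. In HxD 5 became 77 by DESeq2, 71 without a filter and 121 without the 3 libraries, in KO 197 became 617, 464 and 335, and in V 25 became 261, 176 and 383. With only 2 groups fitted they fell to 2, 26 and 4, and at a mean of 5 CPM or more to 1 in HxD and 5 in V; limma-voom called 15 in HxD. Between mutants DESeq2 called 28, 17 and 17 where edgeR called 0. With DESeq2 size factors the median of all genes moved by -0.03 to -0.04 on the log2 scale in the mutants against WT. Replicate numbers did not pair the libraries: deviations of same-numbered libraries correlated at -0.15 to 0.11, and 3 of 12 libraries correlated best with their own number. With a replicate block 1 member was called in KO and 0 in the other comparisons, while over all genes the calls were 22, 285 and 73 in HxD, KO and V. Zeros among the 9 tested members with a mean under 5 CPM followed no order of total counts: 7 were at 0 in HxD1 (28410605 counts) and 1 in V1, the library with the lowest total (18471158).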

Other observations

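The members were also grouped by the kind of control region of their domain, from textbook knowledge and after their values had been seen, so no test was made. Of the 22 in domains with a maternally methylated region, 18 were tested, with positive estimates for 12 in HxD, 12 in KO and 11 in V and medians of 0.13, 0.55 and 0.11 on the log2 scale. Of the 6 in domains with a paternally methylated region, 5 were tested, with 3, 2 and 2 positive estimates and medians of 0.15, -0.44 and -0.22. The positive estimates include Sgce in the maternally methylated group and, in KO and V, Rtl1 in the paternally methylated group. Both passed the filter on low counts only through mutant libraries. The 3 genes with a placental or non-canonical imprint had 1, 2 and 3 positive estimates and medians of -0.10, 0.66 and 0.24. Among members averaging 5 CPM or more, the maternally methylated group kept 12 members, with medians of 0.13, 0.39 and 0.25, and the paternally methylated group kept Igf2 and Dlk1.

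Against the range of the 3 WT libraries, 9 of 9 mutant libraries were higher for Plagl1 and 8 of 9 for Impact and for Nnat, and 8 of 9 were lower for Kcnq1ot1. For Sfmbt2 7 of 9 were higher, and for Igf2 and for Inpp5f 7 of 9 were lower. The 9 libraries are of 3 genotypes and are compared with the same 3 WT libraries, of which WT1 was the lowest for Plagl1, Impact, Sfmbt2, Slc38a4 and Peg3. How many of all genes reach such counts was not computed, so the counts do not set these members apart. In a single mutant, 5.77% to 8.70% of all genes lay wholly to a given side of WT.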
